A study of Mus musculus with 12 samples.

Results

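The Dickkopf and secreted frizzled-related antagonists of Wnt signalling were followed across mouse spinal cord arrays through every probe set annotated to 1 of 9 gene symbols alone, Dkk1, Dkk2, Dkk3, Dkk4, Sfrp1, Sfrp2, Sfrp4, Sfrp5 and Frzb. This gave 17 probe sets of the 45101 deposited, and 9 of the 18193 genes with a probe set of their own. Sfrp1 had 5 probe sets, Dkk1, Dkk3, Frzb and Sfrp5 had 2 each, and Dkk2, Dkk4, Sfrp2 and Sfrp4 had 1 each. The pair for Dkk3, the pair for Frzb and 3 of those for Sfrp1 were each designed on 1 shared sequence, so probe sets of a gene are repeated readings of 1 transcript pool and not separate samples.

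Canonical Wnt signals are received by a frizzled receptor together with the coreceptor Lrp5 or Lrp6, and the signal stabilises β-catenin, which then acts on genes with TCF/LEF transcription factors. Dickkopf proteins act at the coreceptor: Dkk1, Dkk2 and Dkk4 bind Lrp5 and Lrp6 with Kremen proteins, while Dkk3 is a divergent member without an established action there. Secreted frizzled-related proteins, to which Frzb (also called Sfrp3) belongs, carry a frizzled-like cysteine-rich domain and bind Wnt ligands outside the cell. Both families therefore act upstream of β-catenin, and a dominant-active β-catenin lies below the step at which they interfere. In the developing spinal cord Wnt signals pattern the dorsal part and slow the maturation of oligodendrocytes.

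Mice of the Olig2cre/DA-Cat genotype were set against wild type, once at day 15 and once at day 4, which made 4 groups of 3 biological replicates with 1 array per replicate. In Olig2cre/DA-Cat mice Cre is made where Olig2 is used, which in the cord means the oligodendrocyte lineage and motor neuron progenitors, and DA-Cat denotes β-catenin in a dominant-active form. Wild-type mice were littermates and no group carried Olig2cre alone, so Cre and DA-Cat cannot be told apart in the genotype comparison. The labels do not say how many animals a replicate holds, and p-values then measure only the spread between these samples. Day is tagged as a developmental stage, yet the same labels describe lysolecithin, a demyelinating agent, given to adult cords, so what the days count from is not settled.

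The labels name ventrolateral white matter as the source, while every sample title says spinal cord, so the part of the cord taken is not settled. The mean level of a list of 19 neuron genes lay between 11.77 and 12.03 log2 on the 12 arrays. Levels are log2 signals as deposited. Within a group, arrays correlated with each other at a mean r of 0.994 to 0.997. Of the genes behind the genotype, the β-catenin gene Ctnnb1 differed by -0.07 at day 15 and by -0.05 at day 4 without passing the test, and Olig2 fell by 0.44 at day 15 and by 0.90 at day 4. No source at hand says whether these probe sets read the DA-Cat transcript. Of 22 genes of myelin and mature oligodendrocytes, 15 were lower in Olig2cre/DA-Cat at day 15 and 19 at day 4, and 22 rose between the days in either genotype. Skeletal muscle genes were uneven: at day 15 the mean of their 14 genes was between 5.02 and 10.05 in Olig2cre/DA-Cat and between 4.92 and 7.01 in wild type. At day 4 it was between 5.34 and 8.09 in Olig2cre/DA-Cat and between 5.16 and 7.53 in wild type. In these bulk samples fewer cells of a type and less RNA per cell cannot be told apart.

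Promoter windows of 5 of the 9 genes, Dkk1, Dkk2, Frzb, Sfrp2 and Sfrp5, were found among RefSeq sequences of build GRCm38.p6, each running from 250 bases before to 50 bases after the gene's start. Those of Sfrp2 and Frzb are shown because these 2 genes fell together between the days, and that of Dkk1 because this gene is known as a target of β-catenin. They lie at chr3:83766071-83766370 on the plus strand, at chr2:80447347-80447646 on the minus strand and at chr19:30549447-30549746 on the minus strand, in this order, and capitals mark CTTTG, the core of TCF/LEF sites, on either strand.
Sfrp2: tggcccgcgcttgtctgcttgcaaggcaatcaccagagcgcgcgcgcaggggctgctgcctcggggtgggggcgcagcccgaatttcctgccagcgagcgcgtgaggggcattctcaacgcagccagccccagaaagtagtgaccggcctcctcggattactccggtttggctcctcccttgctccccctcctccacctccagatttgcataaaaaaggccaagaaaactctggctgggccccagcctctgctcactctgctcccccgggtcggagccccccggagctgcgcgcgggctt
Frzb: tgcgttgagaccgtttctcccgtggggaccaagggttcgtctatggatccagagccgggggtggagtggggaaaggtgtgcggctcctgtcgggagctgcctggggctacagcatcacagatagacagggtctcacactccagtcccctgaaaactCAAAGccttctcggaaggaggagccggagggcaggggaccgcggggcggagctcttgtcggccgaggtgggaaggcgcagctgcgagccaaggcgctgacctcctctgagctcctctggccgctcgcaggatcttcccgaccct
Dkk1: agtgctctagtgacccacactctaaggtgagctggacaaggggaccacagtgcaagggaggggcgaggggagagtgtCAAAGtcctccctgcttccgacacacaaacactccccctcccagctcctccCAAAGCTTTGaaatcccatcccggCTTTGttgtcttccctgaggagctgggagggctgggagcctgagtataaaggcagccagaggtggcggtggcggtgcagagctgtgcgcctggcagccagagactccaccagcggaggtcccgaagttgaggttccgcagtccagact
CTTTG occurred 4 times in the Dkk1 window, 1 time each in those of Frzb and Dkk2, and 0 times in those of Sfrp2 and Sfrp5. At least 1 match was present in 53.9% of all 32851 windows, and the share of windows with 4 matches was not computed. The longer form CTTTGAT was in 0 of the 5 windows and in 3.73% of all windows. The form CTTTGAA, which overlaps a CTTTG core, was in the Dkk1 window and in 5.14% of all windows. These matches describe letters in a short window and not sites in use.

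**Figure D1:**
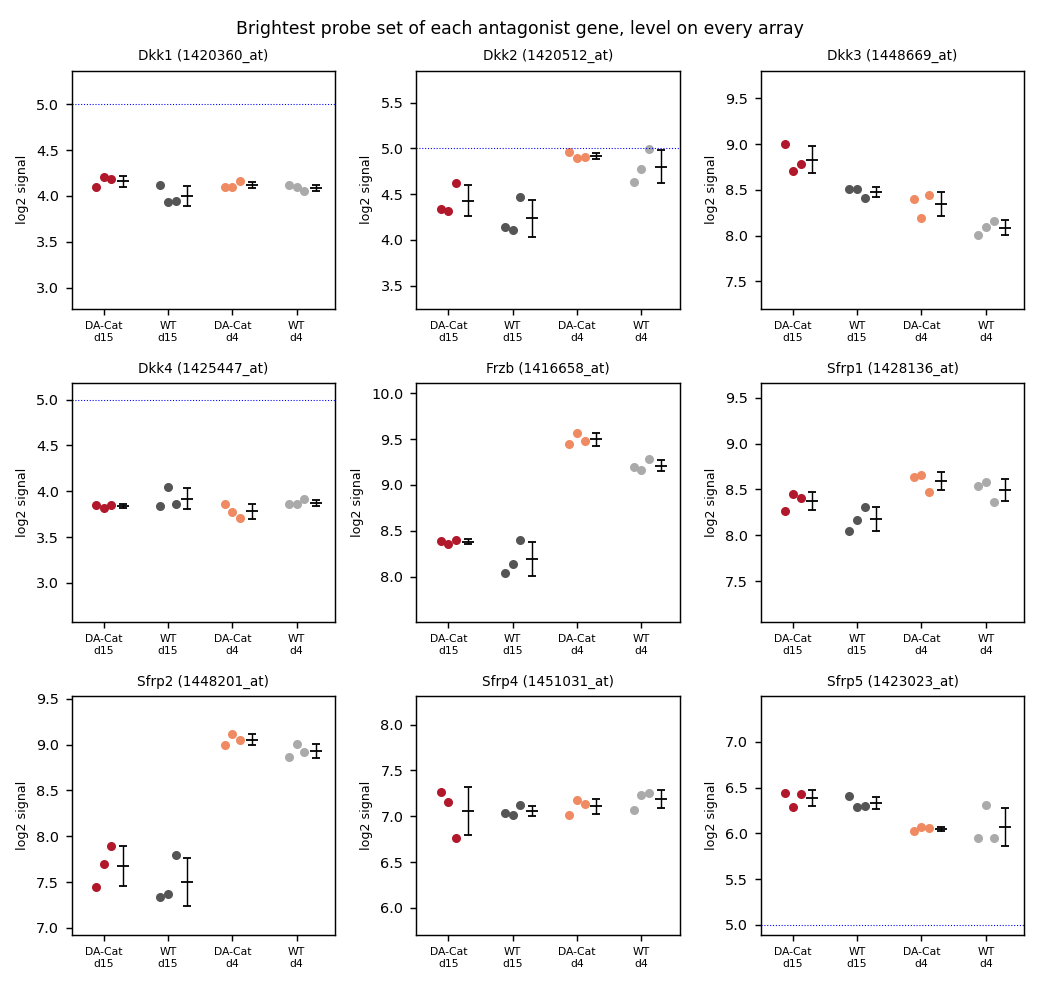
Level (log2 signal, y axis) of the brightest probe set of each of the 9 genes on every array, by group on the x axis (DA-Cat, Olig2cre/DA-Cat; WT, wild type; d, day); points are arrays, black bars are mean ± SD of 3 arrays, every panel spans the same height, and the dotted line is the level of 5 below which a probe set was read as near background. Sfrp2 and Frzb stand lower at day 15 than at day 4 in both genotypes, Dkk3 stands higher, and Dkk1, Dkk2 and Dkk4 stay under the dotted line in group mean.

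Probe sets whose mean stayed under 5 log2 in all 4 groups were read as near background. This held for 4 of the 17, the pair for Dkk1 and those for Dkk2 and Dkk4. The Dkk1 probe set 1420360_at was at 4.16 ± 0.06 in Olig2cre/DA-Cat and 4.00 ± 0.11 in wild type at day 15, and at 4.12 ± 0.03 in Olig2cre/DA-Cat and 4.09 ± 0.04 in wild type at day 4 (SD, n = 3 each). Dkk4 lay between 3.71 and 4.05 over the 12 arrays. At such levels absence cannot be told from a low level, and the other 13 probe sets, of Dkk3, Frzb, Sfrp1, Sfrp2, Sfrp4 and Sfrp5, carry most of what can be read.

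The first comparison asked whether constant β-catenin signalling in Olig2-expressing cells was accompanied by a change in these secreted antagonists. In limma's fit over all 45037 non-control probe sets, 0 of the 17 were called at day 15 and 0 at day 4 at a Benjamini-Hochberg adjusted p under 0.05, where 1.62% and 1.49% of all probe sets were called. At an unadjusted p under 0.05 there were 6 at day 15 and 4 at day 4. Both probe sets of Dkk3 and both of Frzb are in each count, so these are not separate results. The share of all probe sets at that unadjusted threshold was not computed, so no excess can be read from these counts. The median difference of the 17 was 0.18 at day 15 and 0.12 at day 4 on the log2 scale, beside 0.01 over all probe sets at either day. With so few calls over the whole table, 0 of 17 is near the background.

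Among the Dickkopf genes Dkk3 had the largest genotype differences. Its probe set 1448669_at was at 9.0, 8.71 and 8.78 on the 3 Olig2cre/DA-Cat arrays of day 15, against 8.51, 8.51 and 8.42 in wild type. At day 4 it was at 8.40, 8.20 and 8.44 in Olig2cre/DA-Cat, against 8.00, 8.10 and 8.16 in wild type. Every Olig2cre/DA-Cat array lay above every wild-type array of its day. The difference was 0.35 ± 0.09 at day 15 (SE, adjusted p = 0.0838, limma) and 0.26 ± 0.09 at day 4 (SE, adjusted p = 0.188). The other Dkk3 probe set, 1417312_at, gave 0.32 (adjusted p = 0.0995) at day 15 and 0.24 (adjusted p = 0.199) at day 4, with no overlap of the groups on either day.

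Dkk1 differed by 0.16 at day 15 and 0.03 at day 4 on 1420360_at, and by 0.14 at both days on 1458232_at. Dkk2 differed by 0.19 at day 15 and 0.12 at day 4, and Dkk4 by -0.08 and -0.10. Their adjusted p-values ran from 0.331 for Dkk1 upwards to 0.861, and all 4 probe sets lay near background. None of these differences passed the test.

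Frzb is a Wnt-binding antagonist first described in cartilage. Probe set 1416658_at was at 8.39, 8.35 and 8.40 in Olig2cre/DA-Cat at day 15, against 8.04, 8.14 and 8.40 in wild type. At day 4 it was at 9.44, 9.57 and 9.48 in Olig2cre/DA-Cat, against 9.20, 9.16 and 9.28 in wild type. The groups were apart at day 4, whereas at day 15 wild type replicate 3 reached the Olig2cre/DA-Cat level. The difference was 0.19 ± 0.09 (SE, adjusted p = 0.377) at day 15 and 0.28 ± 0.09 (SE, adjusted p = 0.136) at day 4. The dimmer Frzb probe set 1448424_at gave 0.35 ± 0.13 at both days (SE, adjusted p = 0.25 at day 15 and 0.209 at day 4).

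None of the Sfrp genes passed the test either. Sfrp2, which binds Wnt ligands and is made by immature neural tissue, differed by 0.18 (95% interval -0.10 to 0.46) at day 15 and by 0.13 (95% interval -0.15 to 0.41) at day 4. Sfrp4 differed by -0.002 (95% interval -0.25 to 0.24) at day 15 and by -0.08 (95% interval -0.32 to 0.17) at day 4. The brighter Sfrp5 probe set, 1423023_at, differed by 0.06 at day 15 and -0.02 at day 4, and 1436075_at by 0.18 and 0.07. Over the 5 probe sets of Sfrp1 the difference ran from -0.10 to 0.23 at day 15 and from -0.14 to 0.18 at day 4, and none passed (lowest adjusted p = 0.378 at day 15 and 0.342 at day 4). The highest upper bound of any 95% interval was that of the noisy Sfrp1 probe set 1448395_at, at 0.88 for day 15 and 0.83 for day 4. Next came Frzb 1448424_at, at 0.63 on both days.

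Counts of groups that did not overlap are given by probe set, although the pairs for Dkk3 and for Frzb are repeated readings of a gene. Whether they depart from the shares over all probe sets was not tested. Olig2cre/DA-Cat lay wholly above wild type for 3 of the 17 probe sets at day 15 and for 6 at day 4, and wholly below for 0 on either day. Over all probe sets, 8.63% lay wholly above and 8.63% wholly below at day 15, and 14.1% above and 10.1% below at day 4. The 3 at day 15 were both probe sets of Dkk3 and 1448424_at of Frzb. Those at day 4 were both of Dkk3, both of Frzb, 1460187_at of Sfrp1 and, near background, 1458232_at of Dkk1.

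**Figure D2:**
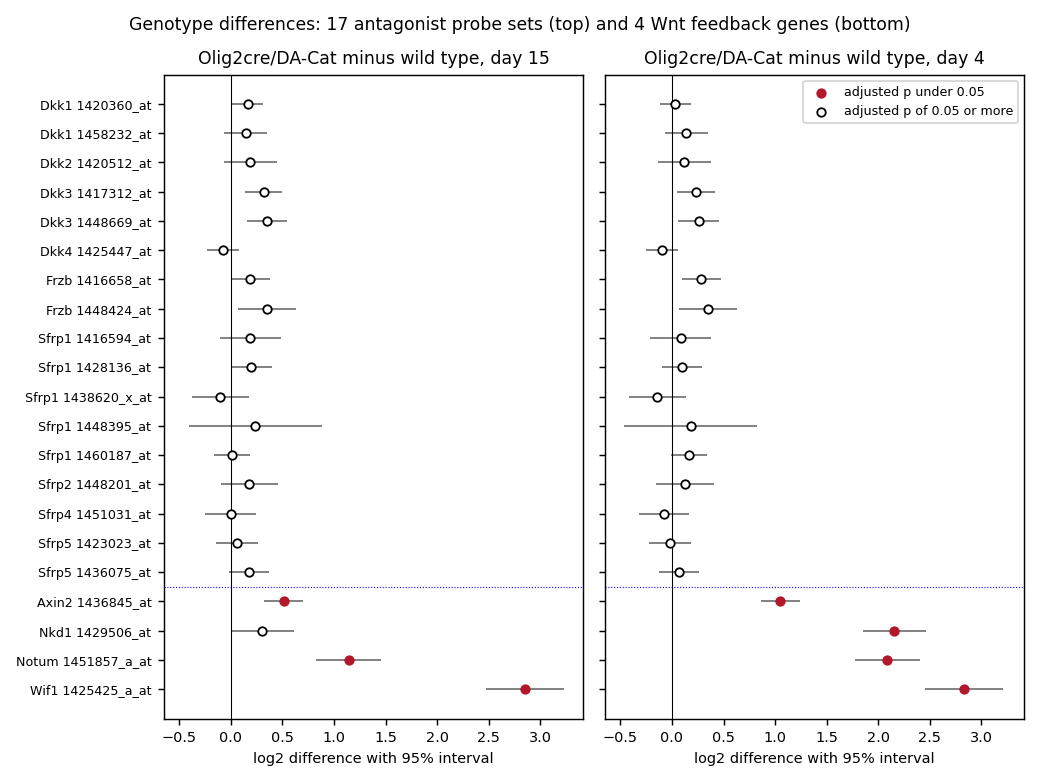
Log2 difference, Olig2cre/DA-Cat minus wild type (x axis), for the 17 antagonist probe sets and, under the dotted line, 4 Wnt feedback genes (y axis), at day 15 on the left and day 4 on the right; lines are 95% intervals of 1 limma fit on 12 arrays, filled points have an adjusted p under 0.05. The antagonists lie between -0.14 and 0.35, while Axin2 is at 0.51 at day 15 and 1.05 at day 4 and Wif1 at 2.85 and 2.83. Notum is at 1.14 and 2.09. Nkd1 is at 0.30 without a call at day 15, within the range of the antagonists, and at 2.15 at day 4. These 4 are part of the list of 16 measured targets and feedback regulators.

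Averaging both days, a contrast added after the single days had been seen, gave calls for 4 of the 17 probe sets, where 4.29% of all probe sets were called, 1.67% higher and 2.61% lower. All 4 were higher in Olig2cre/DA-Cat, and they came from 2 genes, each read by a pair, so they are not 4 separate results. Dkk3 rose by 0.31 ± 0.06 on 1448669_at (SE, adjusted p = 0.018) and by 0.28 ± 0.06 on 1417312_at (SE, adjusted p = 0.0215). Frzb rose by 0.24 ± 0.06 on 1416658_at (SE, adjusted p = 0.0495) and by 0.35 ± 0.09 on 1448424_at (SE, adjusted p = 0.0496). Of all called probe sets 39.1% were higher in this contrast, against 28.4% with quantile normalization and 29.8% with arrays centred on their medians, and under both scalings the pair for Frzb lost the call while Dkk3 stayed positive and called. The count was 0 without wild type day 4 replicate 1 and 1 without Olig2cre/DA-Cat day 4 replicate 3. It was 2 without Olig2cre/DA-Cat day 4 replicate 1 or 2, wild type day 4 replicate 2, Olig2cre/DA-Cat day 15 replicate 1 or 3, or wild type day 15 replicate 1, and 3 without any one of the other arrays.

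Marker levels of another tissue stood beside these values as follows. The mean level of 18 meninges and fibroblast genes was between 7.90 and 8.45 in Olig2cre/DA-Cat at day 15 and between 7.33 and 8.34 in wild type, and between 8.75 and 9.02 in Olig2cre/DA-Cat at day 4 and between 8.37 and 8.93 in wild type. Every one of the 18 had a mean above 5 log2 in all 4 groups, and 0 were called at either day, with medians of 0.53 at day 15 and 0.26 at day 4. With this level as a covariate the averaged difference was 0.32 for Dkk3 1448669_at (adjusted p = 0.0643) and, for Frzb, 0.16 on 1416658_at (adjusted p = 0.24) and 0.34 on 1448424_at (adjusted p = 0.146), and 0 of the 17 probe sets were called. With the skeletal muscle level as a covariate it was 0.28 for Dkk3 1448669_at (adjusted p = 0.0652), 0.21 for Frzb 1416658_at (adjusted p = 0.145) and 0.34 for Frzb 1448424_at (adjusted p = 0.124), again with 0 calls. Without a covariate these averaged differences were 0.31 for Dkk3 1448669_at, 0.24 for Frzb 1416658_at and 0.35 for Frzb 1448424_at. Calls over all probe sets fell as well, from 1930 to 1149 with the meninges and fibroblast covariate and to 998 with the muscle covariate. At day 15 some other lists lay wholly above wild type in Olig2cre/DA-Cat. The neuron list was at 11.86 to 11.97 against 11.77 to 11.81, and the Schwann cell list at 8.02 to 8.35 against 7.66 to 7.94. Endothelium (8.67 against 8.49 to 8.64) and cartilage and bone (5.95 to 5.98 against 5.71 to 5.90) did so too. The myelin list lay wholly below. At day 4 the lists just named as above overlapped with wild type. The motor neuron list lay wholly above at day 4, at 7.26 to 7.33 against 7.13 to 7.19. So did the ependyma list, at 6.37 to 6.46 against 6.08 to 6.26. The myelin, oligodendrocyte precursor and red blood cell lists lay wholly below at day 4. Their bearing on Dkk3 and Frzb was not tested.

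Set beside the rest of the pathway, the lack of calls among the Dkk and Sfrp genes stood next to rises in feedback genes. Taking the brightest probe set per gene, 0 of the 9 antagonist genes were called at either day, where 2.19% of 18193 genes were called at day 15 and 2.01% at day 4. A list of pathway targets and feedback regulators had 16 measured members, of which 6 rose at day 15 (median difference 0.35) and 10 rose at day 4 (median 0.67). The cell cycle gene Ccnd1 was the 1 that fell, by 0.54 at day 4. Of all genes 0.368% were called higher at day 15 and 0.561% at day 4. The lists were chosen with earlier results of these data known, so these counts carry no test. Of 22 other secreted modulators and antagonist receptors, 3 rose at day 15 and 4 at day 4, and 0 fell on either day. These were the lipase-like Notum, which strips the lipid from Wnt ligands, Wif1, which binds Wnt ligands, Rspo3, which enhances Wnt signalling, and at day 4 also Apcdd1, a membrane inhibitor; Notum, Wif1 and Apcdd1 stand in both lists.

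Rspo3 rose by 0.41 ± 0.07 (SE, adjusted p = 0.0142) at day 15 and by 0.39 ± 0.07 (SE, adjusted p = 0.0193) at day 4. Of 19 Wnt ligand genes 0 were called on either day, with medians of 0.02 and -0.03. Of 16 frizzleds and coreceptors Fzd1 rose at day 15, by 0.40, and Fzd1 and Fzd2 rose at day 4, by 0.39 and 0.32. The Dickkopf coreceptors Lrp5 (-0.13 and 0.07) and Lrp6 (-0.05 and 0.01) and the Dickkopf receptor Kremen1 (0.06 and 0.03) did not pass at day 15 or day 4. Lrp5 lay near background, with a highest group mean of 4.19, so its lack of a call says little.

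**Figure D3:**
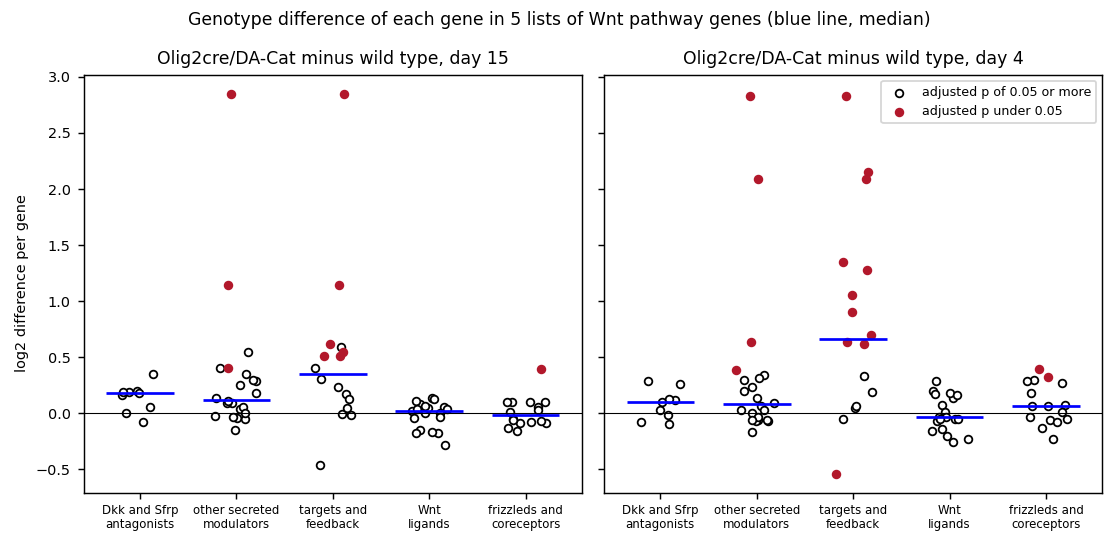
Log2 difference, Olig2cre/DA-Cat minus wild type, of each gene's brightest probe set (y axis) in 5 lists of Wnt pathway genes (x axis; points are spread sideways for legibility), at day 15 on the left and day 4 on the right; filled points have an adjusted p under 0.05 and blue lines are medians. The 9 antagonist genes are all open, and the targets and feedback list has 6 filled points at day 15 and 11 at day 4.

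The second comparison followed the antagonists between day 4 and day 15 within each genotype. In Olig2cre/DA-Cat 9 of the 17 probe sets were called, 4 higher and 5 lower at day 15, and in wild type 10, of which 4 were higher and 6 lower. These are 52.9% and 58.8% of the 17, where 35.7% of all probe sets were called in Olig2cre/DA-Cat and 33.1% in wild type. In both genotypes Dkk3 and Sfrp5 rose and Dkk2, Frzb, Sfrp2 and at least 1 probe set of Sfrp1 fell, which makes 6 of 9 genes. In Olig2cre/DA-Cat 17.0% of all probe sets were called higher at day 15 and 18.7% were called lower, and in wild type 16.5% each way. By the brightest probe set alone, 5 of 9 genes were called in Olig2cre/DA-Cat and 6 in wild type, where 45.1% and 41.7% of all genes were, and 9 genes are too few to tell these shares apart. The 3 genes without a call were Dkk1, Dkk4 and Sfrp4. Where arrays of the days are said below not to overlap, the share over all probe sets is not given. Such a separation therefore describes that probe set alone.

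Sfrp2 had the largest fall. It was at 7.45, 7.70 and 7.89 in Olig2cre/DA-Cat at day 15, against 9.0, 9.12 and 9.05 at day 4. In wild type it was at 7.33, 7.37 and 7.80 at day 15, against 8.86, 9.01 and 8.92 at day 4. The days were far apart in both genotypes, and replicate 3 was the highest of each day 15 group. The difference was -1.38 ± 0.13 in Olig2cre/DA-Cat (SE, adjusted p = 2.84e-06), a fold of 0.385, and -1.43 ± 0.13 in wild type (SE, adjusted p = 2.61e-06), a fold of 0.372.

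Frzb fell to about the same degree on both of its probe sets. On 1416658_at, whose array values are given above, day 15 differed from day 4 by -1.11 ± 0.09 in Olig2cre/DA-Cat (SE, adjusted p = 6e-07) and by -1.02 ± 0.09 in wild type (SE, adjusted p = 1.65e-06). On 1448424_at it was at 5.94, 5.84 and 6.15 in Olig2cre/DA-Cat at day 15, against 7.07, 7.22 and 7.01 at day 4. In wild type this probe set was at 5.34, 5.82 and 5.72 at day 15, against 6.73, 6.61 and 6.91 at day 4. The difference was -1.12 in both genotypes (adjusted p = 1.64e-05 in Olig2cre/DA-Cat and 1.97e-05 in wild type). No day 15 array reached a day 4 array on either probe set.

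Dkk2, an Lrp coreceptor ligand, fell at a level near background. It was at 4.34, 4.32 and 4.62 in Olig2cre/DA-Cat at day 15, against 4.96, 4.89 and 4.90 at day 4, and at 4.14, 4.10 and 4.47 in wild type at day 15, against 4.63, 4.78 and 4.99 at day 4. The differences were -0.49 (adjusted p = 0.00546) and -0.56 (adjusted p = 0.00243). So low a signal compresses fold changes, and their size is not to be read closely.

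Dkk3 went the other way. Probe set 1448669_at, with the values given above, was higher at day 15 than at day 4 by 0.48 ± 0.09 in Olig2cre/DA-Cat (SE, adjusted p = 0.000908) and by 0.39 ± 0.09 in wild type (SE, adjusted p = 0.00449). On 1417312_at the differences were 0.40 (adjusted p = 0.00221) and 0.32 (adjusted p = 0.01). The groups did not overlap on either probe set.

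Sfrp5 rose as well, with probe sets that differed in size. On 1436075_at it was at 6.48, 6.57 and 6.32 in Olig2cre/DA-Cat at day 15, against 5.76, 5.75 and 5.64 at day 4, and at 6.33, 6.23 and 6.26 in wild type at day 15, against 5.63, 5.50 and 5.81 at day 4. These are rises of 0.74 ± 0.09 (SE, adjusted p = 2.72e-05) and 0.63 ± 0.09 (SE, adjusted p = 0.00012), with no overlap between the days. On 1423023_at the rises were 0.34 (adjusted p = 0.0126) and 0.26 (adjusted p = 0.0481), and the wild-type call held in 8 of 25 alternatives (adjusted p from 0.00278 to 0.202). It was lost without any 1 array other than wild type day 4 replicate 2 or Olig2cre/DA-Cat day 15 replicate 2. The Olig2cre/DA-Cat call was lost without the 2 arrays of highest muscle level (adjusted p = 0.0823).

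The probe sets of Sfrp1 did not give 1 answer. Probe set 1460187_at was at 6.71, 6.81 and 6.71 in Olig2cre/DA-Cat at day 15, against 7.15, 7.21 and 7.30 at day 4, a fall of 0.47 on the log2 scale (adjusted p = 0.000426). In wild type it was at 6.64, 6.90 and 6.66 at day 15, against 7.05, 7.0 and 7.11 at day 4, and fell by 0.32 (adjusted p = 0.00738). The brightest, 1428136_at, differed by -0.22 in Olig2cre/DA-Cat (adjusted p = 0.0859) and fell by 0.32 in wild type (adjusted p = 0.0168), a call that was lost without wild type day 4 replicate 1 (adjusted p = 0.0586) or 2 (adjusted p = 0.0705) or wild type day 15 replicate 1 (adjusted p = 0.0781). All 5 had a negative difference in both genotypes, from -0.47 to -0.12 in Olig2cre/DA-Cat and from -0.36 to -0.16 in wild type, and the other 3 did not pass.

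Of the 3 Sfrp1 probe sets without a call, 1438620_x_at carries the suffix that Affymetrix gives to probes which may bind other transcripts as well. Probe set 1448395_at was at 7.82, 7.45 and 6.97 in wild type at day 15, against 7.86, 6.96 and 8.43 in wild type at day 4. The SD at day 4 was 0.74, whereas that of 1460187_at, designed on the same sequence, was 0.05. Its 95% interval for day 15 minus day 4 in wild type ran from -0.98 to 0.30. Without wild type day 4 replicate 2 it fell in wild type by 0.73 (adjusted p = 0.0316), and 1416594_at fell by 0.51 (adjusted p = 0.0067) and without wild type day 15 replicate 1 by 0.44 (adjusted p = 0.0412). Sfrp4 was flat by comparison, with differences of -0.05 (95% interval -0.29 to 0.20) in Olig2cre/DA-Cat and -0.13 (95% interval -0.37 to 0.12) in wild type.

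**Figure D4:**
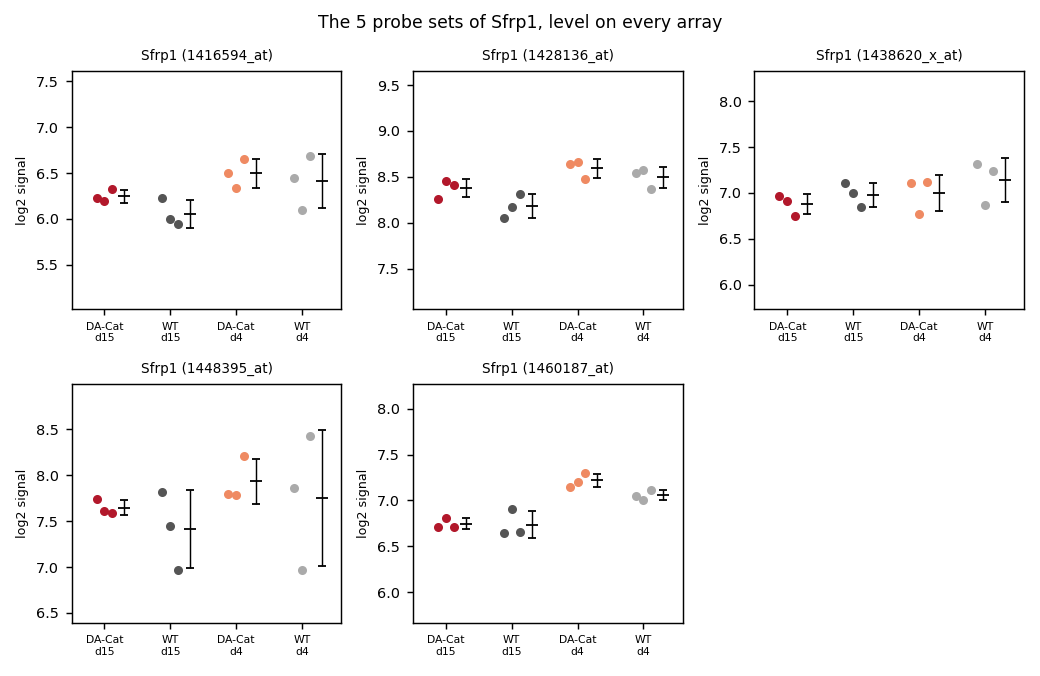
Level (log2 signal, y axis) on every array for each of the 5 probe sets of Sfrp1, by group on the x axis (DA-Cat, Olig2cre/DA-Cat; WT, wild type; d, day); points are arrays, black bars are mean ± SD of 3 arrays, and every panel spans the same height. Probe set 1460187_at parts the days with an SD of 0.05 in wild type at day 4, whereas 1448395_at has an SD of 0.74 there.

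**Figure D5:**
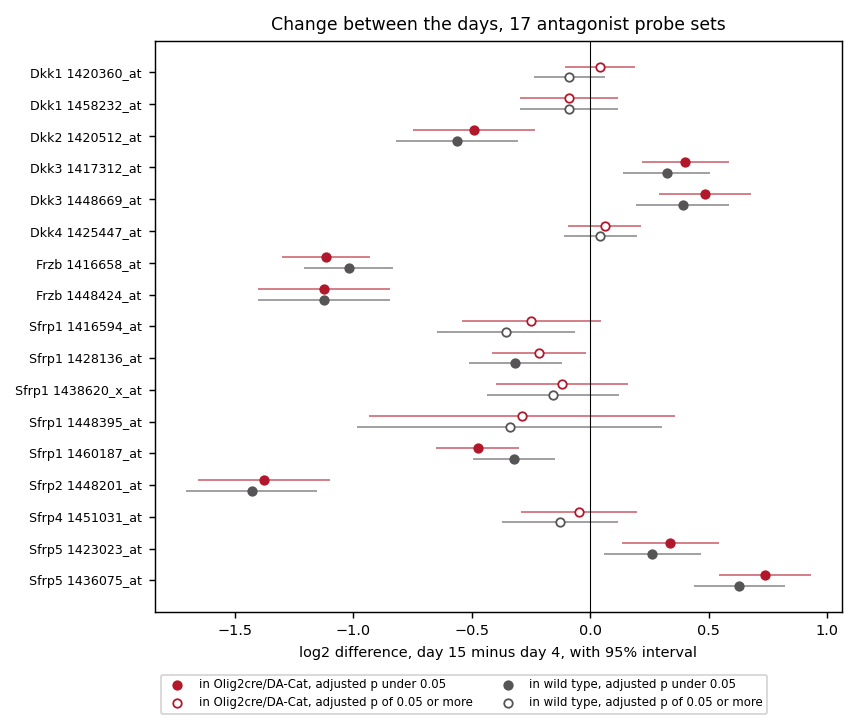
Log2 difference, day 15 minus day 4 (x axis), of the 17 antagonist probe sets (y axis) in Olig2cre/DA-Cat (red) and wild type (grey); lines are 95% intervals of 1 limma fit on 12 arrays, filled points have an adjusted p under 0.05. Sfrp2 and Frzb lie beyond -1 in both genotypes, and Dkk3 and Sfrp5 lie above 0.

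Of the 18 meninges and fibroblast genes, 8 fell and 1 rose between the days in Olig2cre/DA-Cat, with a median of -0.68, and 12 fell and 0 rose in wild type, with a median of -0.97. Of all genes 25.0% were called lower in Olig2cre/DA-Cat and 21.8% in wild type. With their mean level as a covariate the call for Dkk2 was lost in both genotypes, at -0.39 in Olig2cre/DA-Cat (adjusted p = 0.0756) and -0.42 in wild type (adjusted p = 0.129). That for 1423023_at of Sfrp5 was lost too, at 0.36 in Olig2cre/DA-Cat (adjusted p = 0.0505) and 0.29 in wild type (adjusted p = 0.202). In wild type Dkk3 then had 0.37 on 1448669_at (adjusted p = 0.0983) and 0.27 on 1417312_at (adjusted p = 0.194). Sfrp1 in wild type had -0.34 on 1460187_at (adjusted p = 0.0824) and -0.20 on 1428136_at (adjusted p = 0.352), also without a call, while 1416594_at gained one at -0.61 (adjusted p = 0.0404). For Dkk3 1448669_at, Sfrp1 1460187_at and Sfrp5 1423023_at the difference in wild type without the covariate was 0.39, -0.32 and 0.26, in that order. Over all probe sets, calls in wild type fell from 14892 to 9212 with the covariate. Sfrp2 then fell by 1.23 in Olig2cre/DA-Cat and by 1.21 in wild type, and Frzb 1416658_at by 0.98 and 0.83, all still called.

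The change between the days was compared between genotypes directly, as the genotype difference at day 15 minus that at day 4. Of the 17 probe sets 0 were called (limma, adjusted p from 0.769 to 0.999; 0 at an unadjusted p under 0.05), where 0.220% of all probe sets were called. The estimate was 0.05 (95% interval -0.34 to 0.44) for Sfrp2, -0.10 (95% interval -0.36 to 0.17) for Frzb 1416658_at and 0.09 (95% interval -0.18 to 0.37) for Dkk3 1448669_at. A difference of these sizes between the genotypes' time courses was not detectable with 3 arrays a group, and its absence is not shown.

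Since no member was called in a single-day genotype contrast, profiles across the 12 arrays were matched for the 3 genes whose brightest probe set had the widest range of group means, Sfrp2, Frzb and Dkk3. Among 14584 genes above background, Sfrp2 was most like Pcdh8, a protocadherin (Pearson's r = 0.996 over 12 arrays), Prrxl1, a homeodomain factor of dorsal horn neurons (r = 0.995), and Hnrnpd (r = 0.994). Frzb was most like Wdr5 (r = 0.996), Sidt1 (r = 0.995) and Igfbp5, an insulin-like growth factor binding protein (r = 0.995). Dkk3 was most like Ddx24 (r = 0.982), Anxa6 (r = 0.966) and Atp5a1, a subunit of the mitochondrial ATP synthase (r = 0.964). These values describe profiles that share the same arrays and the step between the days, and carry no test.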

How the data were processed

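Total RNA of spinal cord was biotin-labelled and hybridised to Affymetrix 3' expression arrays, 1 sample per array, per the labels' protocols. The authors deposited 1 log2 signal per probe set and array; their background correction, probe summary and normalization are not given in the sources used here, and the log2 scale was judged from the values. No detection calls or scan dates were used, and arrays carry no read depth, so their number limits the precision. Of 45101 probe sets, 64 controls were left out; 34945 had 1 gene symbol in the platform annotation, of which 34741 matched RefSeq GRCm38.p6 by Entrez identifier, with 0 symbols changed.

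A single model with 4 group means was fitted to all 12 arrays by lmFit, contrasts.fit and eBayes of limma (version 3.58.1, in R 4.3.3), leaving 8 residual degrees of freedom. P-values are two-sided, adjusted by Benjamini-Hochberg over 45037 probe sets, threshold 0.05; every adjusted p printed comes from limma. The fit was tested on simulated data. Intervals are unadjusted 95% intervals. Lists were read through each gene's brightest probe set: of 274 entries in 18 lists, 254 had one. Members and lists were chosen with earlier results of these data known, and the averaged contrast after values were seen. All member probe sets are described; in 4 Wnt lists genes called in a genotype contrast may be named, and the likeness rule took 3 genes per member. Lrp5, Lrp6 and Kremen1, and the genes of the closing observations, were named after their values were seen. Alternatives changed normalization, moderation, array weights, filters, covariates, samples and the replicate block.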

Additional observations from a re-analysis of the deposited data

How the results depend on the processing

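Of the 102 member values (17 probe sets in 6 contrasts), recomputed 2482 times in all under the alternatives, 0 called values changed sign, 72 recomputed values lost a call and 13 gained one; a further 87 uncalled values changed sign. The falls of Sfrp2 and Frzb between the days, in both genotypes, were called under every alternative in which they were tested. At day 4 the count of members called was 1 with array weights (Frzb 1416658_at), against 0. At day 15 it was 1 with trend and robust settings, 1 with the Eif2s3y level as a covariate and 2 without the dimmest 50%, all of Dkk3, against 0. Between the days the count was 5 in Olig2cre/DA-Cat and 6 in wild type when only the brightest probe set of each of the 9 genes was tested, against 9 and 10, because fewer probe sets were counted. In wild type it was 5 with the meninges and fibroblast covariate. For the average of both days it was 2 with quantile normalization, with centred arrays and with the brightest probe sets, 0 with the muscle and 0 with the meninges covariate, and 1 without the 2 arrays of highest muscle level, against 4; the cause was not tested. Leaving out each array in turn gave 0 to 0 calls for either single day and for the difference between days, 9 to 9 in Olig2cre/DA-Cat, 8 to 11 in wild type and 0 to 3 for the average.

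Same-numbered arrays of one day correlated between -0.18 and 0.21 in their deviations from group means, so the numbers were not taken to pair the samples. With a replicate block the averaged count was 2, both calls of Frzb being lost (adjusted p = 0.0529 on 1416658_at and 0.0581 on 1448424_at). With a replicate block within day it was 1, since Dkk3 1417312_at was lost too (adjusted p = 0.0679), and other counts of members stayed within 1.5 times. In wild type the replicate block lost the call of Sfrp5 1423023_at (adjusted p = 0.0714) and gained that of Sfrp1 1416594_at (adjusted p = 0.0349). Over all probe sets the calls ran from 82 to 1162 at day 15 against 729, from 330 to 1926 at day 4 against 673, from 8743 to 16605 in Olig2cre/DA-Cat against 16088, from 8159 to 16387 in wild type against 14892, from 55 to 135 for the difference between days against 99, and from 863 to 3169 for the average against 1930. Quantile normalization and centring moved the median of all probe sets by under 0.1 log2. The block within day, the removal of 2 arrays and the averaged contrast were chosen after seeing the data. Signals near background limit Dkk1, Dkk2 and Dkk4.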

Other observations

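Some other secreted regulators and receptors of the pathway also fell between day 4 and day 15, and those named here were chosen after their values were seen. Of the 22 other secreted modulators and antagonist receptors, 10 fell and 1 rose in Olig2cre/DA-Cat and 11 fell and 1 rose in wild type, with medians of -0.41 and -0.38, where 25.0% and 21.8% of all genes were called lower. No enrichment was tested, and the other 11 genes in Olig2cre/DA-Cat and 10 in wild type did not pass. Sostdc1, a secreted antagonist that binds Lrp coreceptors and BMP ligands, fell by 1.45 in Olig2cre/DA-Cat (adjusted p = 1.87e-05) and by 1.76 in wild type (adjusted p = 4.29e-06). Tpbg, a membrane protein that inhibits Wnt signalling, fell by 1.05 and 1.09. Gpc3, a heparan sulphate proteoglycan, fell by 1.20 and 1.24, and Draxin, an axon guidance protein that also antagonises Wnt signals, fell by 0.89 and 0.99. Ndp, the frizzled ligand norrin, rose by 0.34 (adjusted p = 0.0198) and 0.32 (adjusted p = 0.0288). Of 19 Wnt ligand genes 6 fell in each genotype, while 2 rose in Olig2cre/DA-Cat and 1 in wild type.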
